A study of Mus musculus with 3 samples.

Results

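Lamc3 and Adcy7 stromal cells are a population of matrix-producing cells of the mouse ovary, picked out by transcripts of Lamc3 (laminin gamma 3, a basement membrane subunit), Adcy7 (adenylyl cyclase 7, which makes cAMP) and Smim41 (a small membrane protein). A cell was a member when it had at least 2 of these 3 transcripts and at least 2 of the 5 stromal transcripts Dcn, Lum, Col1a1, Col3a1 and Pdgfra. It also had fewer than 2 of Wnt4, Frem1 and Col12a1, which mark another stromal population. Deposited values of Mfap5 and Clec3b, which mark adventitial fibroblasts, had to lie under 1, and those of Inha (granulosa cells) and Cyp17a1 (theca cells) under 2. Rgs5 (pericytes), Ptprc (leukocytes) and Pecam1 (endothelium) had to be at 0. Of 31776 cells, 1203 were members, a share of 3.79% with an exact 95% binomial interval from 3.58% to 4.0%.

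The ovarian stroma is the connective tissue between and around the follicles. Its fibroblast-like cells lay down collagens and proteoglycans, and the cells nearest a growing follicle form the theca, whose inner layer makes androgen under luteinizing hormone and whose outer layer is fibrous and contractile. A basement membrane of laminins and type IV collagen separates theca from granulosa, and another surrounds the capillaries that reach the theca. Granulosa cells send Hedgehog ligands outward, and Ptch1, Hhip and Gli1 are the usual response genes in the stroma. The ovulatory surge acts through cAMP and EGF-like factors, and injected human chorionic gonadotropin (hCG) stands in for that surge.

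The labels name 3 droplet-based single-cell libraries of whole mouse ovary, 1 each at 0, 1 and 6 h after hCG. They give no strain, genotype, age or number of pooled animals, whereas the study's methods describe Kunming mice and, for sequencing, ovaries of prepubertal animals primed with pregnant mare serum gonadotropin, with no mention of hCG there. Whether the libraries at 0, 1 and 6 h had this priming is not stated in the sources used here. All cells are in 1 table, and each cell barcode ends in 1, 2 or 3. Nothing in the sources used here ties an ending to a library, so the endings are called barcode sets 1, 2 and 3 and no time point was given to any of them. With 1 library per time point, no result below has a replicate check and no test was run.

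The members held 10972772 UMIs (unique transcript molecules) in all, with a median of 8205 per cell. By set there were 507, 337 and 359 members, which made up 4.88%, 3.40% and 3.13% of the cells and 15.2%, 11.5% and 8.25% of the stromal cells, and their median depths were 7783, 8882 and 8301 UMIs. A total of 112 barcodes occurred in more than 1 set, and 12 member cells had such a barcode. The level of a gene is its summed UMIs per 10000 summed UMIs of the cells of a group in a set, and a ratio is that of the means of the 3 sets. All intervals cover counting error only and are too narrow for cells, which vary more than counts do.

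Of the 19 stromal markers 5 chose the cells. The other 14 all had a mean level of at least 0.5 in the members, and together they summed to between 78.4 and 81.9 in the 3 sets, against 68.5 to 85.3 in stromal cells that met the other conditions but had fewer than 2 of the naming genes. All 3 naming genes were detected in 400 members, Lamc3 with Smim41 in 401, Adcy7 with Smim41 in 238 and Lamc3 with Adcy7 in 164. All 3 were found in 41.8%, 41.5% and 13.4% of the members of sets 1, 2 and 3. Lamc3 (GRCm38 chr2:31887291-31946539, plus strand) had a level of 2.08, 1.97 and 1.34 in sets 1, 2 and 3, and Adcy7 (chr8:88272403-88329962, plus strand) one of 1.71, 1.11 and 0.695. Smim41 (chr15:101293163-101297426 in RefSeq) stood at 2.03, 2.58 and 1.86. These values chose the cells and are given as a description.

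After thinning of each cell to 3000 UMIs, which left 1191 members, 44.7% had a Lamc3 UMI, 33.8% an Adcy7 UMI and 50.1% a Smim41 UMI, against 80.2%, 66.7% and 86.4% unthinned. Among 256 thinned myeloid cells the shares were 0% (an upper limit of 1.43%), 20.3% and 0.391%, and among 1236 endothelial cells 5.02%, 0.485% and 0.324%, at median depths of 4293.5 and 5011 UMIs before thinning. Adcy7 was therefore well detected in myeloid cells too, and Lamc3 at a low share in endothelium. Inha, which the rule limits, reached 31.2% of thinned members and Cyp11a1 24.0%, beside 45.3% and 27.0% of myeloid cells. The part of free RNA in these shares was not tested.

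Members were over-represented among the nearest cells of a member. In a space of 30 principal components built per set from 2000 variable genes without the 18 genes of the rule, 55.4%, 53.7% and 26.9% of the 15 nearest stromal neighbours of a member were members in sets 1, 2 and 3. Members made up 17.4%, 12.4% and 8.70% of those stromal cells, so the share was 3.18, 4.33 and 3.10 times the overall one. In set 3 more of the nearest cells, 49.1%, belonged to stroma that met the other conditions with fewer than 2 of the naming genes than were members. Fibroblasts marked by Mfap5 and Clec3b were rare neighbours, at 4.15%, 7.25% and 5.18%.

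**Figure D1:**
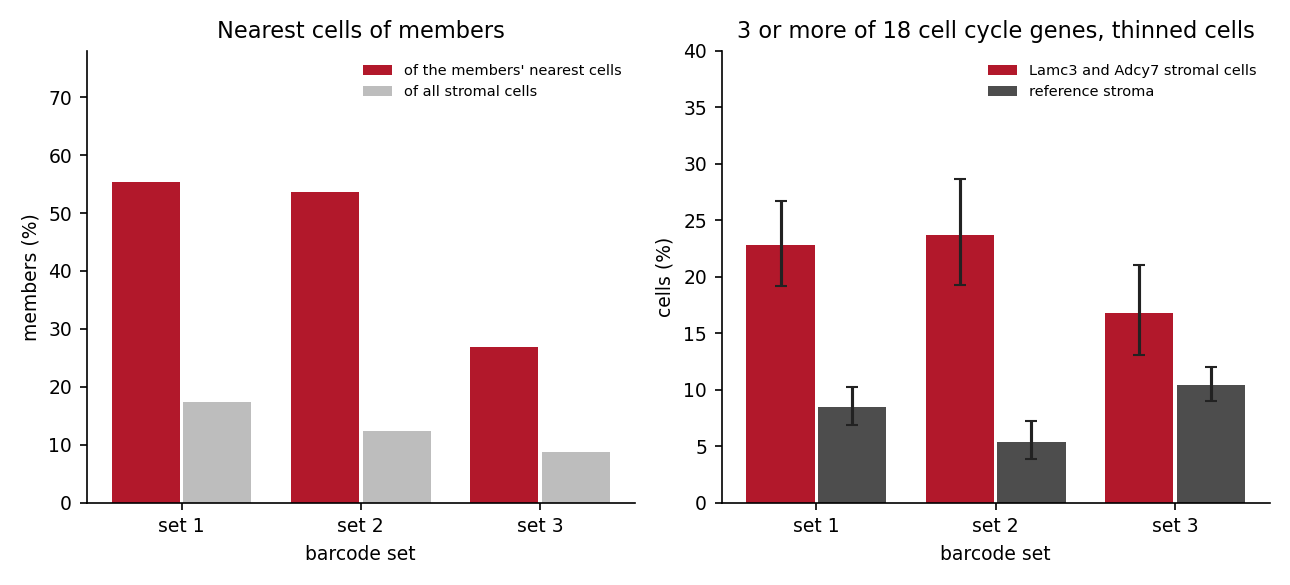
Left, the percentage of members among the 15 nearest stromal cells of a member (red) and among all stromal cells (grey) in each barcode set. Right, the percentage of cells thinned to 3000 UMIs with 3 or more of 18 cell cycle genes in members (red) and reference stroma (dark grey), with exact 95% intervals. The red bars are the taller ones in each set of both panels.

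To describe what went with the naming genes, the members were set beside reference stroma, meaning the 4211 cells that met every other condition but had fewer than 2 of the 3 naming genes (1440, 908 and 1863 cells, median depth 5660 UMIs). Most genes stood at a like level, with a median ratio of 1.02 over the 3279 genes with a mean level of at least 0.5 in either group. At least 2 times higher in each of the 3 sets were 5 genes, or 0.152%, namely Slc38a5, Thbd, Cdc20, Mme and Sdc3. At least 2 times lower in each set were 17 genes, or 0.518%, led by Spp1, Wt1, Sfrp4, Clu and Lhcgr. A gene could pass the level filter through either group alone, so both counts are partly set by the filter. Slc38a5, Cdc20 and Sdc3 passed it through the members alone, and Wt1 and Lhcgr through the reference stroma alone. The ratio of Spp1, which encodes the secreted protein osteopontin, was 0.207, 0.0834 without set 3, 0.453 when cells with at least 2 UMIs of Cyp11a1 were left out, and 2.34, the other direction, with stricter exclusions, meaning that Mfap5, Clec3b, Inha, Cyp17a1, Wnt4, Frem1 and Col12a1 all had to be at 0 in both groups. These counts depended on the requirement in each set: without set 3 there were 56 higher and 62 lower genes, and with the sets pooled 51 and 57. Both groups come from the same libraries and share no cells, so the ratios describe these libraries and no more.

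Slc38a5 (chrX:8271133-8280179), a transporter of glutamine and other neutral amino acids, had levels of 1.08, 0.741 and 0.438 in sets 1, 2 and 3 of the members and of 0.225, 0.141 and 0.148 in the reference stroma. The lowest member set lay above the highest reference set, and the ratio was 4.40 (95% interval 3.91 to 4.95). In thinned cells 18.2% of members had an Slc38a5 UMI, against 3.97% of reference cells, 1.95% of myeloid and 1.70% of endothelial cells.

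Thbd (chr2:148404466-148408188, minus strand) encodes thrombomodulin, the thrombin receptor that switches thrombin from clotting to activation of protein C, and is best known from endothelium. Its level was 1.39, 2.21 and 3.04 in the members and 0.429, 0.460 and 1.20 in the reference stroma, a ratio of 3.17 (2.98 to 3.37) with no overlap of the groups. Thinned members had a Thbd UMI in 37.6% of cells and endothelial cells in 18.5%. Of the 10 endothelial markers, Pecam1 was at 0 by the rule and none reached a level of 0.5 in the members, the highest being Emcn at 0.466. Together they summed to between 0.910 and 0.982, against 0.598 to 0.783 in the reference stroma, and their part in the Thbd level was not tested.

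Mme (neprilysin, chr3:63241537-63386030) cleaves small peptides at the cell surface, and it stood at 3.05, 1.73 and 0.203 in the members against 1.07, 0.709 and 0.102 in the reference stroma. The level in set 3 was far below that in sets 1 and 2 in both groups, while the ratio was 2.85, 2.44 and 2.0 within sets. Enpep, the aminopeptidase that turns angiotensin II into angiotensin III, is a surface peptidase as well. Enpep had levels of 3.08, 3.46 and 1.5 in the members and 1.39, 0.906 and 0.831 in the reference stroma, with ratios of 2.21, 3.82 and 1.81, and so was not among the 5. Ace, named after its values were seen, was below the level filter at 0.398, 0.458 and 0.472 in the members, against 0.0965, 0.129 and 0.173.

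Sdc3 (syndecan 3, a heparan sulfate carrier that binds growth factors and matrix) had levels of 0.618, 0.671 and 0.278 in the members and 0.266, 0.255 and 0.135 in the reference stroma. Its ratio was 2.39 (2.12 to 2.70). Only 13.3% of thinned members had an Sdc3 UMI, above the 6.39% of endothelial cells and below the 20.3% of myeloid cells.

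**Figure D2:**
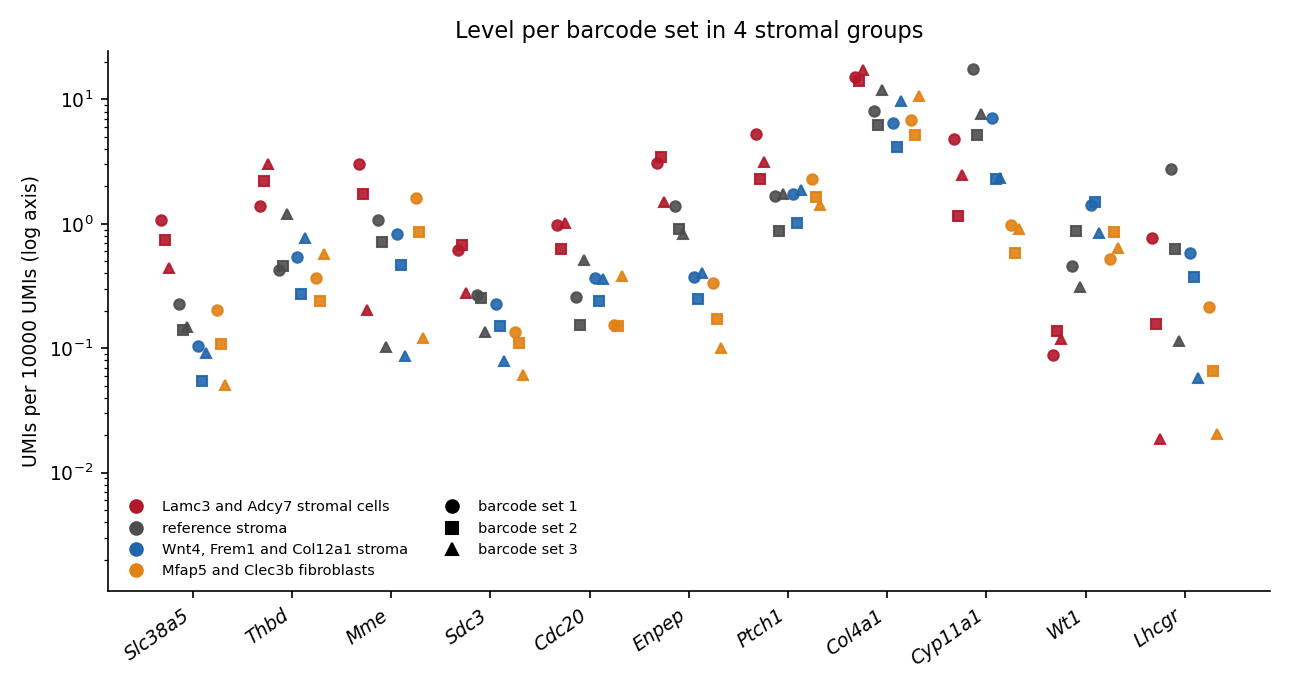
Level of 11 genes in UMIs per 10000 UMIs (log axis) in the members (red), the reference stroma (grey), Wnt4, Frem1 and Col12a1 stroma (blue) and Mfap5 and Clec3b fibroblasts (orange), with 1 point per barcode set. The red points of Slc38a5 and Thbd lie above all points of the other groups, and those of Wt1 lie below.

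These levels went stepwise with the number of naming genes a cell had, as a look just inside and outside the threshold shows. The groups with 0, 1, 2 and 3 naming genes held 2721, 1490, 803 and 400 cells. Their median depths were 5064, 6538.5, 7875 and 9034.5 UMIs, so depth moved with the number of genes detected. The Slc38a5 level was 0.105, 0.276, 0.624 and 0.977 in that order, and that of Thbd 0.497, 0.975, 1.96 and 2.71. Cyp11a1 went the other way, at 10.7, 9.41, 3.08 and 2.21, and so did Wt1, at 0.686, 0.311, 0.151 and 0.0479. When the rule was applied to cells that had all been thinned to 3000 UMIs first, Slc38a5, Thbd and Mme were again at least 2 times higher in each set, whereas Cdc20 and Sdc3 were not, with ratios of 1.62 and 2.76. Slc38a5 and Thbd kept their calls under the 4 other cell selections named next, whereas Mme lost its call with all 3 naming genes required, Mme and Sdc3 with stricter exclusions, Mme and Cdc20 without cells over 20000 UMIs, and Cdc20 with only cells of at least 5000 UMIs. The ratios over the mean of the sets stayed above 2 in each of these cases, and Mme was at 2.73, 2.53 and 2.56 in that order, Sdc3 at 2.84, and Cdc20 at 2.72 and 2.62.

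**Figure D3:**
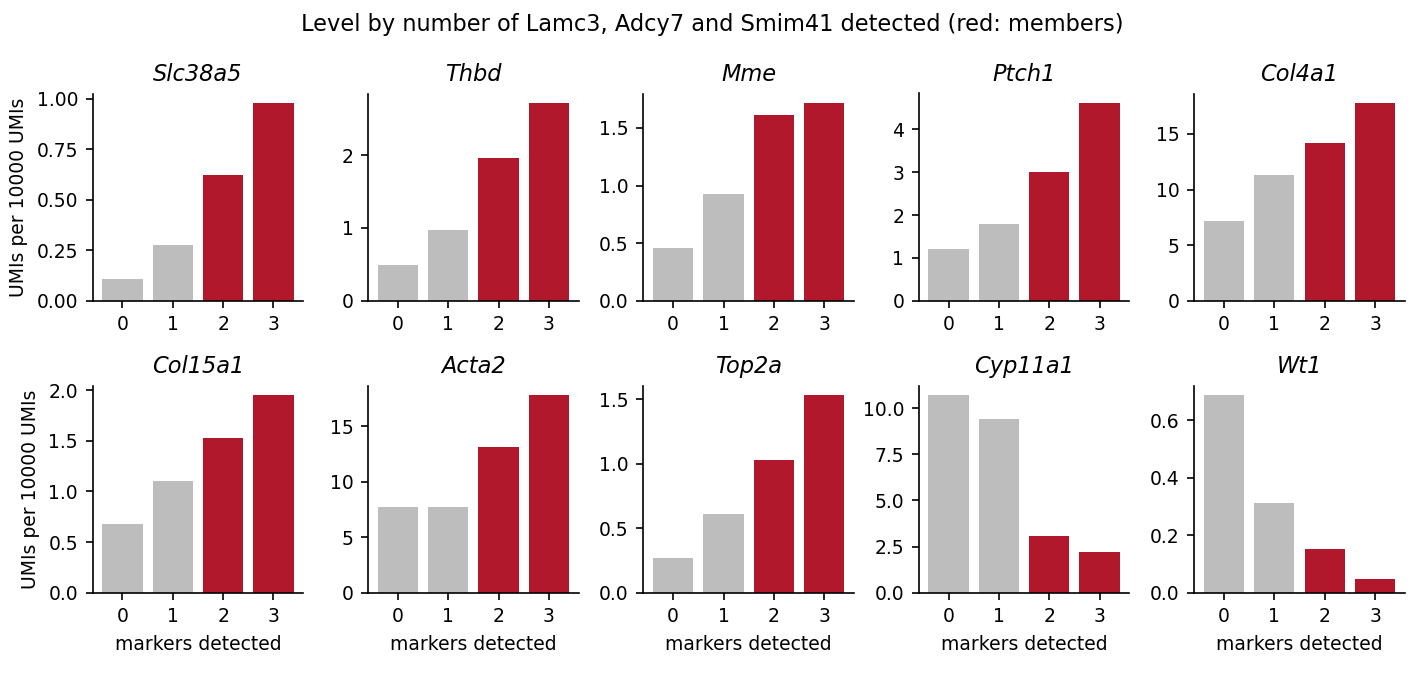
Level of 10 genes in UMIs per 10000 UMIs, as the mean over the 3 barcode sets, in cells with 0, 1, 2 or 3 of Lamc3, Adcy7 and Smim41 that met every other condition. Members are red. Slc38a5 goes from 0.105 to 0.977 and Wt1 from 0.686 to 0.0479.

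At the other limits of the rule the values ran on without a gap. The highest Mfap5 value of a member was 0.973 and the lowest in a cell kept out by Mfap5 alone was 1.01, with 141 such cells. For Inha the values were 1.99 and 2.0, with 64 cells kept out, and 244 cells were kept out because they also had at least 2 of Wnt4, Frem1 and Col12a1.

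Basement membrane genes stood higher in the members than in the reference stroma as a list. Of the 23 listed, 9 passed the level filter without being genes of the rule, all 9 had a ratio above 1, and 8 were above 1 in each set, with a median of 1.60 beside 1.02 for all genes. Of all genes tested 32.2% were above 1 and 24.0% below 1 in each set. None of the 9 was 2 times higher in each set. Against the Wnt4, Frem1 and Col12a1 stroma, 6 of 10 tested genes had a ratio above 1 and 4 were above 1 in each set. The median there was 1.11, beside 1.01 for all genes. Col4a1, Col4a2 and Col15a1 were at least 1.5 times higher in each set there, and Nid2 at least 1.5 times lower. Col4a1, a chain of the main type IV collagen network, had levels of 15.1, 14.2 and 17.1 against 8.13, 6.28 and 11.9. Its partner Col4a2 had a ratio of 1.60 (1.55 to 1.64). Col15a1, a collagen at the outer face of basement membranes, had levels of 1.46, 1.73 and 1.88 against 0.798, 0.656 and 1.07. Capillary cells make these collagens as well, and pericyte markers summed to between 1.02 and 1.64 in the members against 0.870 to 1.30 in the reference stroma, beside the endothelial sums given above. Thinned endothelial cells had a Col4a1 UMI in 92.9% of cells, members in 89.7%, reference stroma in 74.8% and myeloid cells in 8.59%. The part of capillary cells in the list was not tested.

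Among the laminin chains of that list, Lama2 had a ratio of 1.64, whereas Lamc1, the common gamma chain, had levels of 0.978, 0.985 and 0.682 against 0.930, 0.932 and 0.661, a ratio of 1.05 (0.97 to 1.13). Lama2, Col4a4 and Col15a1 were at least 1.5 times higher in each set, as were 1.22% of all genes. Timp3, an inhibitor of matrix proteases that binds to matrix, had levels of 3.42, 6.75 and 5.01 against 2.04, 2.67 and 2.09. It was the 1 gene at least 1.5 times higher in each set of the matrix remodelling list, where 5 of 19 tested genes had a ratio above 1, with 4 above and 6 below 1 in each set and a median of 0.923. Of the 23 fibrillar collagen, proteoglycan and elastic fibre genes tested, 10 were above 1 and 7 below 1 in each set, with a median ratio of 1.10, beside the 32.2% and 24.0% of all genes.

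Hedgehog response genes differed among themselves. Ptch1, the receptor and a target of the pathway, had levels of 5.24, 2.30 and 3.14 in the members against 1.67, 0.881 and 1.74, with ratios of 3.15, 2.61 and 1.81 in sets 1, 2 and 3. Hhip, which binds and holds back Hedgehog ligands, had 2.06, 1.73 and 1.71 against 0.865, 0.638 and 1.81, so the groups overlapped and set 3 did not share the difference, with a ratio of 1.66 and of 2.52 without set 3. Gli1, the transcription factor at the end of the pathway, was below the level filter at 0.325, 0.406 and 0.210 against 0.152, 0.198 and 0.161. Smo, the transducer, had a ratio of 1.01 (0.927 to 1.10), and Gas1, a co-receptor, a lower level of 0.551, 0.271 and 0.713 against 1.05, 0.914 and 0.842.

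The members had more cells with cell cycle transcripts than the reference stroma. After thinning, 22.8%, 23.7% and 16.8% of members had at least 3 of 18 cell cycle genes in sets 1, 2 and 3, against 8.46%, 5.39% and 10.4% of the reference stroma. Over all sets the shares were 21.2% (19.0% to 23.7%) and 8.75%, and unthinned they were 42.2% and 18.8%. Shares of 32.4% in myeloid and 29.7% in endothelial cells were higher still. Members were chosen before thinning, at a median of 8205 UMIs against 5660, so thinning does not match the choice of cells for depth. In cells with 0, 1, 2 and 3 naming genes the Top2a level was 0.271, 0.611, 1.03 and 1.53, and depth rose as well. The part of depth in these shares was not tested. Of the 22 listed cell cycle genes, 9 were tested and 13 fell below the level filter. All 9 had a ratio above 1 and 8 were above 1 in each set, beside 32.2% of all genes, with a median of 2.55. A gene could pass the filter through the members alone, as Top2a did, so these values are partly set by the filter.

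Top2a, the topoisomerase that untangles chromosomes before division, had levels of 1.60, 1.31 and 0.810 against 0.397, 0.219 and 0.599, a ratio of 3.06 and of 4.73 without set 3. Cdc20, which activates the anaphase-promoting complex, had 0.972, 0.628 and 1.02 against 0.259, 0.155 and 0.508. As given above, Cdc20 was not called when the rule itself was applied to thinned cells. When cells with at least 3 of the 18 genes were left out of both groups, which left 695 members and 3420 reference cells, the Cdc20 ratio was 0.954 and 10 genes were called higher, 2 of them, Slc38a5 and Thbd, shared with the 5. Mme, Cdc20 and Sdc3 were no longer called, although the ratios of Mme and Sdc3 were 2.91 and 2.94, above the 2.65 and 2.39 with all cells.

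The CHR element, TTTGAA on either strand, is known from promoters of genes used late in the cell cycle. It was found in the 250 bases before the start of 4 of the 8 tested cell cycle genes with a RefSeq promoter (50%), and in 5252 of all 32851 promoters (16%). The 30 bases around it are shown for Cdc20 and for members of the list because these genes stood higher together (GRCm38.p6, 5′ to 3′ on the gene's strand, element in capitals, TTCAAA where it lies on the other strand). They lie at chr4:118437344-118437373 minus strand for Cdc20, chr2:164769888-164769917 plus strand for Ube2c, chr11:99024195-99024224 minus strand for Top2a and chr10:69352913-69352942 minus strand for Cdk1.
Cdc20: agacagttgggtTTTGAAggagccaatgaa
Ube2c: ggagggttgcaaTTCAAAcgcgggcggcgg
Top2a: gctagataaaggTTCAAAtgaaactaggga
Cdk1: ctttaccgcggcgagTTTGAAactgctggc
In these 4 windows the element ended within 30 bases of the annotated start. Cdc20 was not on the list, and Hmgb2, also among the 4 listed genes with the element, is not shown. A match describes these letters only.

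Steroidogenic genes stood lower in the members than in the reference stroma. Of the 24 listed, 12 were tested, none had a ratio above 1 in each set and 11 were below 1 in each set, beside 24.0% of all genes, with a median of 0.541. A gene could pass the level filter through the reference stroma alone, as Lhcgr did, so these values are partly set by the filter. Cyp11a1, the enzyme that makes pregnenolone from cholesterol, had levels of 4.79, 1.16 and 2.49 in the members against 17.5, 5.19 and 7.58. Lhcgr, the receptor for luteinizing hormone and hCG, had 0.767, 0.156 and 0.0188 against 2.75, 0.628 and 0.115. Hsd3b1, which makes progesterone from pregnenolone, had a ratio of 0.292 (0.280 to 0.305), and Star, which brings cholesterol into mitochondria, one of 0.482. Against the Wnt4, Frem1 and Col12a1 stroma the list differed little. There 4 of 10 tested genes had a ratio above 1 and 3 were below 1 in each set. The median was 0.951, beside 1.01 for all genes.

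The theca markers summed to between 11.7 and 17.1 in the members and between 24.6 and 55.1 in the reference stroma, and the luteal markers to between 0.940 and 2.80 against 3.46 to 9.70. Theca sums were 11.8 to 19.8 in the Wnt4, Frem1 and Col12a1 stroma and 6.14 to 6.60 in the Mfap5 and Clec3b fibroblasts. When cells with at least 2 UMIs of Cyp11a1 were left out of both groups, 9 genes were called lower, 5 of them among the 17: Wt1, Tenm4, Hpgd, Chchd10 and Clu. The ratios of Cyp11a1, which that step selects on, Lhcgr and Hsd3b1 were then 0.853, 0.627 and 0.756. With stricter exclusions 5 of the 17 calls were kept, and with thinned cells 3. The ratios of Cyp11a1, Lhcgr and Hsd3b1 were 0.438, 0.261 and 0.343 with stricter exclusions and 0.394, 0.267 and 0.496 with thinned cells.

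Wt1, a transcription factor of gonadal stroma and granulosa cells, had levels of 0.0889, 0.137 and 0.119 in the members against 0.456, 0.875 and 0.310, a ratio of 0.210 (0.174 to 0.254). Tenm4, a teneurin adhesion receptor, had a ratio of 0.297, and Sfrp4, a secreted Wnt antagonist, one of 0.234. The ratio of Sfrp4 was 0.789 when cells with at least 2 UMIs of Cyp11a1 were left out, and its call was lost with thinned cells and with stricter exclusions, at ratios of 0.287 and 0.292. The calls of Wt1 and Tenm4 were lost with only cells of at least 5000 UMIs, at ratios of 0.236 and 0.338. That of Wt1 was also lost with the sets pooled, at 0.239, and that of Tenm4 with thinned cells and without cells over 20000 UMIs, at 0.254 and 0.277. With all 3 naming genes required the Wt1 ratio was 0.0875, and with thinned cells 0.133. Of the 23 tested stromal and gonadal transcription factors, 1, Wt1, was called lower, as were 0.518% of all genes, and none was called higher, beside 0.152%. The immediate early genes were lower as a list, with 17 of 21 below 1 in each set and a median of 0.821, though none was called, beside the 24.0% of all genes below 1 in each set.

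**Figure D4:**
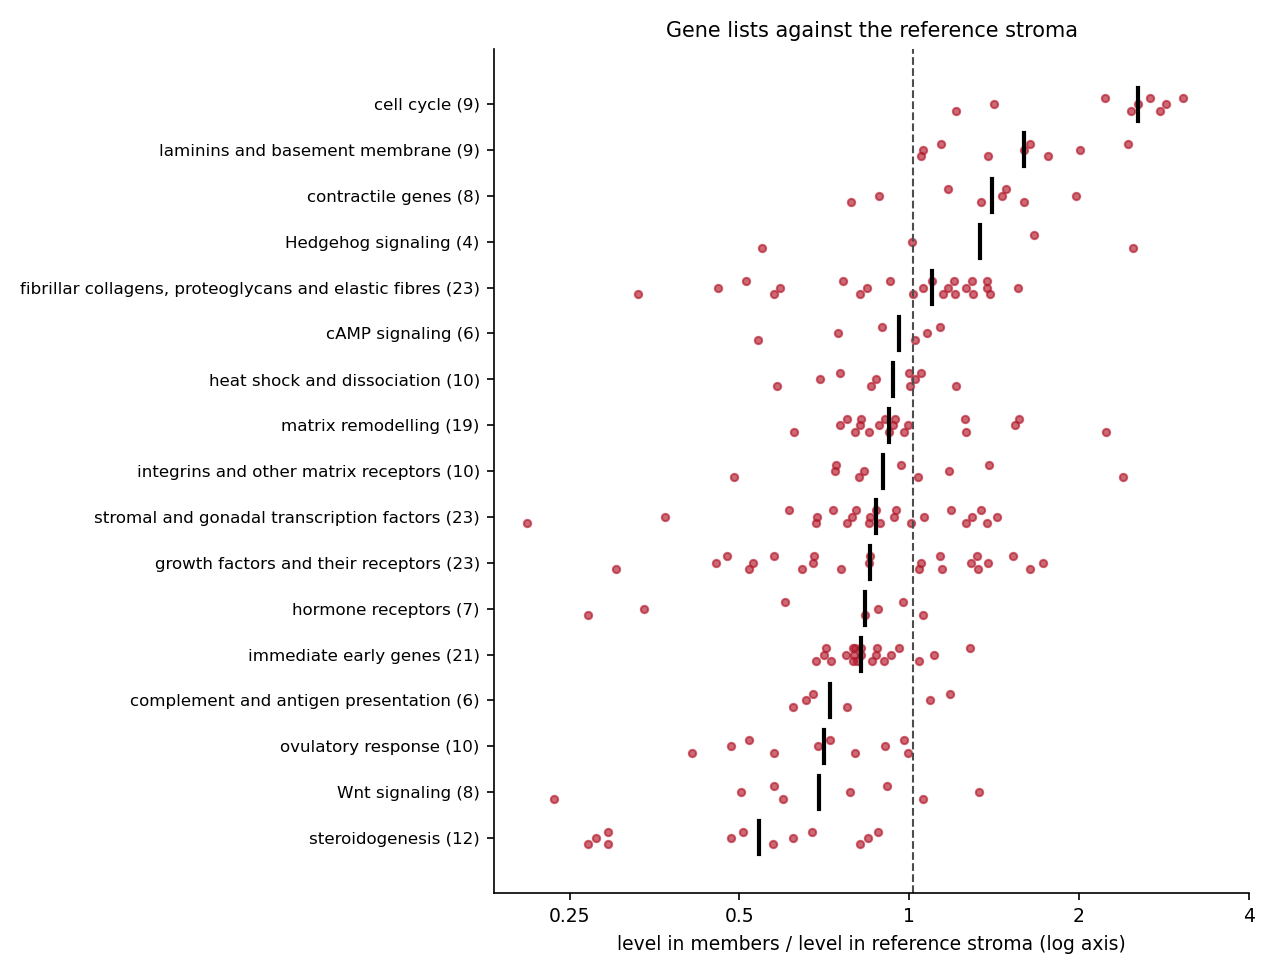
Ratio of the level in the members to that in the reference stroma (log axis) for the tested genes of 17 lists with at least 4 tested genes, with their number in brackets. Each point is 1 gene, the black bar is the median of the list and the dashed line the median of all tested genes, 1.02. Cell cycle genes lie highest, with a median of 2.55, and steroidogenic genes lowest, with 0.541. A gene could pass the level filter through either group, so these medians are partly set by the filter.

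Of the 13 contractile genes 8 were tested, of which 6 were above 1 and 1 below 1 in each set, beside 32.2% and 24.0% of all genes, and none was called. Acta2 (smooth muscle actin) had levels of 18.1, 14.7 and 12.6 against 8.20, 6.12 and 8.63, a ratio of 1.98, while Tagln, its usual companion in smooth muscle, had 3.62, 3.92 and 5.90 against 3.77, 4.18 and 7.26. The fibroblasts marked by Mfap5 and Clec3b stood far higher in both, with Acta2 at 49.1, 45.5 and 41.3. The 8 smooth muscle markers summed to between 19.98 and 24.96 in the members and between 13.0 and 17.3 in the reference stroma. In the Wnt4, Frem1 and Col12a1 stroma they summed to 17.4, 20.7 and 32.4 in sets 1, 2 and 3, a range that overlaps the members.

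Myeloid, lymphoid, surface epithelium, oocyte and glia markers left few transcripts, unlike the theca and smooth muscle markers given above. The 9 myeloid markers, of which Ptprc was at 0 by the rule, summed to between 0.100 and 0.366 in the members. None of them reached a level of 0.1, and their sum in the reference stroma was 0.164 to 0.748. Cd3d, Trbc2 and Ms4a1 of the lymphoid list, Krt7 and Cdh1 of the surface epithelium, Zp1 and Zp3 of the oocyte and Sox10 of the glia had 0 UMIs in the members. Granulosa markers summed to between 2.45 and 5.52, with Inha, which the rule limits in both groups, the highest, against 2.84 to 9.09 in the reference stroma.

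The Wnt4, Frem1 and Col12a1 stroma (1947 cells, with 547, 515 and 885 in the 3 sets and a median of 6205 UMIs) was the more distant comparison. Of 3389 genes, 37 (1.09%) were at least 2 times higher and 57 (1.68%) at least 2 times lower in the members in each set. Here too a gene could pass the level filter through either group alone, as Wfdc1 and Wt1 did. Slc38a5, Thbd, Mme, Sdc3 and Cdc20 were among the 37, with Slc38a5 at 0.105, 0.0543 and 0.0915 in the Wnt4 stroma and a ratio of 9.03, which was 25.7 with thinned cells and 18.2 with stricter exclusions. Wfdc1, a secreted protein with a whey acidic protein domain, led the 37, with member levels of 0.769, 0.726 and 0.375 against 0.0475, 0.0513 and 0.106, a ratio of 9.13, of 15.1 without set 3 and of 18.8 with thinned cells.

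Enpep stood at 0.377, 0.250 and 0.402 in the Wnt4 stroma, a ratio of 7.81, and of 13.3 with thinned cells. Heyl, a transcriptional target of Notch, had 0.800, 3.29 and 0.413 in the members against 0.149, 0.432 and 0.158, a ratio of 6.10 and of 3.95 without set 2. Hhip had a ratio of 4.52, and of 9.59 without set 3, with 0.257, 0.139 and 0.822 in the Wnt4 stroma. Sox9, a transcription factor of cartilage and other cell types, had 0.222, 1.16 and 0.375 against 0.0887, 0.0875 and 0.112, a ratio of 6.10 and of 2.98 without set 2. Ebf1, a transcription factor of mesenchymal cells among other types, had a ratio of 4.53, and 3 of the 9 tested cell cycle genes, Birc5, Ube2c and Cenpa, were also called, beside the 1.09% of all genes.

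Wt1 was again low, with a ratio of 0.0915 to the Wnt4 stroma (0.0471 with thinned cells and 0.0381 with all 3 naming genes required), where it stood at 1.42, 1.5 and 0.850. Gata6, a factor of gonadal stroma and theca, had 0.165, 0.0976 and 0.0501 in the members against 0.858, 0.631 and 0.324, a ratio of 0.172 and of 0.0772 with thinned cells. Clec1a, a C-type lectin receptor, had 38, 24 and 0 UMIs in the members and a ratio of 0.0417, which was 0.0799 with thinned cells and 0.0248 with stricter exclusions. Bdnf, a neurotrophin, stood at 0.0934, 0.153 and 0.135 against 0.329, 0.706 and 1.34. The Wnt ligand Wnt5a and the antagonist Sfrp1 were both called lower, with ratios of 0.297 and 0.199.

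Between barcode sets the members differed in many genes, and so did the reference stroma. Of 3335 genes, 123 (3.69%) were at least 2 times higher and 85 (2.55%) at least 2 times lower in set 2 than in set 1, and 93 of the 123 and 37 of the 85 were at least 2 times apart in the same direction in the reference stroma, where 3.44% of 3428 genes were higher and 3.24% lower. Of 3402 genes, 302 (8.88%) were higher and 152 (4.47%) lower in set 3 than in set 2, of which 199 and 106 were so in the reference stroma, beside 11.5% and 7.36% of 3518 genes there. Since the naming genes themselves differed between sets, a difference within cells and a difference in which cells met the rule cannot be told apart.

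Of the 24 listed ovulatory response genes, 10 were tested and 14 fell below the level filter. All 10 were among the 123, beside 3.69% of all genes. Areg, Ereg, Tnfaip6, Has2 and Timp1 were among those that passed the filter through set 2 alone, so this count is partly set by the filter. Areg, an EGF-like ligand, had 1, 929 and 53 UMIs in the members, at levels of 0.00222, 2.83 and 0.166, and was 1275 times higher in set 2 than in set 1 with an interval from 228 to 50401. In the reference stroma it was 302 times higher. Ereg, a related ligand, was at 0.0645, 1.45 and 0.632, and Tnfaip6, which binds hyaluronan, at 0.0845, 1.40 and 0.332. All 3 were highest in set 2 and lower again in set 3.

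Crem, a cAMP-responsive transcription factor gene, stood at 0.131, 2.12 and 0.350, and Pde10a, which breaks down cyclic nucleotides, at 0.238, 5.53 and 0.804. Their ratios of set 2 to set 1 were 16.2 and 23.2 in the members, beside 12.2 and 29.5 in the reference stroma. Procr, the protein C receptor that works with thrombomodulin, stood at 0.0178, 0.714 and 1.23 in the members and at 0.0997, 0.973 and 1.24 in the reference stroma, so the ratio of set 2 to set 1 was 40.1 (20.03 to 94.1) beside 9.76. That ratio of the members was 18.5 with all 3 naming genes required and 12.8 with thinned cells. Has2, which makes hyaluronan, had 0.0378, 0.509 and 0.238 in the members and 0.0493, 0.0998 and 0.129 in the reference stroma. Its ratio was 13.5 (8.17 to 23.7) beside 2.02, and this difference between the groups was not tested.

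The cAMP response element, TGACGTCA on either strand, was found in the 250 bases before the start of 508 of the 32851 promoters (1.55%). Of the 123 genes, 89 had a RefSeq promoter and 8 of these held it (8.99%), and of the 85 lower genes 61 had one and 2 held it (3.28%). Areg and Plk2 are shown because they were among the 8 and high in set 2 (30 bases, GRCm38.p6, 5′ to 3′, element in capitals). The windows are chr5:91139527-91139556 plus strand and chr13:110394971-110395000 plus strand.
Areg: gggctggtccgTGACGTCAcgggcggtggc
Plk2: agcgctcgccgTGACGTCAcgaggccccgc
Plk2, a stress-responsive kinase named after its values were seen, had member levels of 0.198, 1.66 and 0.241. The letters say nothing of which factor binds there.

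Among the genes lower in set 2 than in set 1, Osr2, a developmental transcription factor, had 2.80, 0.567 and 1.47. Tcf21, a bHLH factor of stromal progenitors, went apart from the reference stroma, with 2.62, 0.689 and 1.17 in the members and 1.85, 2.11 and 1.09 there. It was 1 of 3 genes of the 85 that were not lower in the reference stroma, with Hspb1 and Tmem204. None of the 123 higher genes lacked a ratio above 1 in the reference stroma.

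In set 3 the members had the highest levels of Timp1, a protease inhibitor, at 0.456, 1.27 and 15.1, and of Trf, transferrin, at 0.0111, 0.0702 and 2.03. Serpina3n, a serine protease inhibitor, had 8, 0 and 176 UMIs and was at least 60.2-fold higher in set 3 than in set 2, taking 3 counts as the floor in set 2, with a counting interval that starts at 48.4. Nts (neurotensin) stood at 0.0156, 0.0946 and 2.27, and Frzb, a Wnt antagonist, at 0.116, 0.119 and 1.35. The ratio of set 3 to set 2 was 29.0 for Trf (56.4 with all 3 naming genes required) beside 7.37 in the reference stroma, and 11.9 for Timp1 beside 18.7.

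Cyp26b1, which degrades retinoic acid, had 235, 221 and 1 UMIs in the members, and was 215 times lower in set 3 than in set 2 with an interval from 38.3 to 8549. Its reference levels were 0.176, 0.0803 and 0.0211. Fbxo32 (atrogin-1, a ubiquitin ligase component) stood at 2.12, 1.28 and 0.147, and Heyl was at 3.29 in set 2 and 0.413 in set 3. Eln (elastin), at 0.253 in set 2 and 0.644 in set 3 of the members, and Txnip (a thioredoxin-binding protein), at 0.930 and 2.07, were higher in set 3 there but lower in the reference stroma, with ratios of 0.666 and 0.594.

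The cell cycle genes Mki67, Rrm2 and Pclaf were lower in set 3 than in set 2 of the members and higher in set 3 than in set 2 of the reference stroma. Pcna and Hmgb2 were lower in set 3 than in set 2 of both, with ratios of 0.358 and 0.396 in the members and 0.615 and 0.95 in the reference stroma. Mki67 had 0.754, 0.528 and 0.197 in the members and 0.182, 0.110 and 0.165 in the reference stroma. The naming genes were lower in set 3 than in set 2 too, Lamc3 by a ratio of 0.682 and Adcy7 by 0.626.

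**Figure D5:**
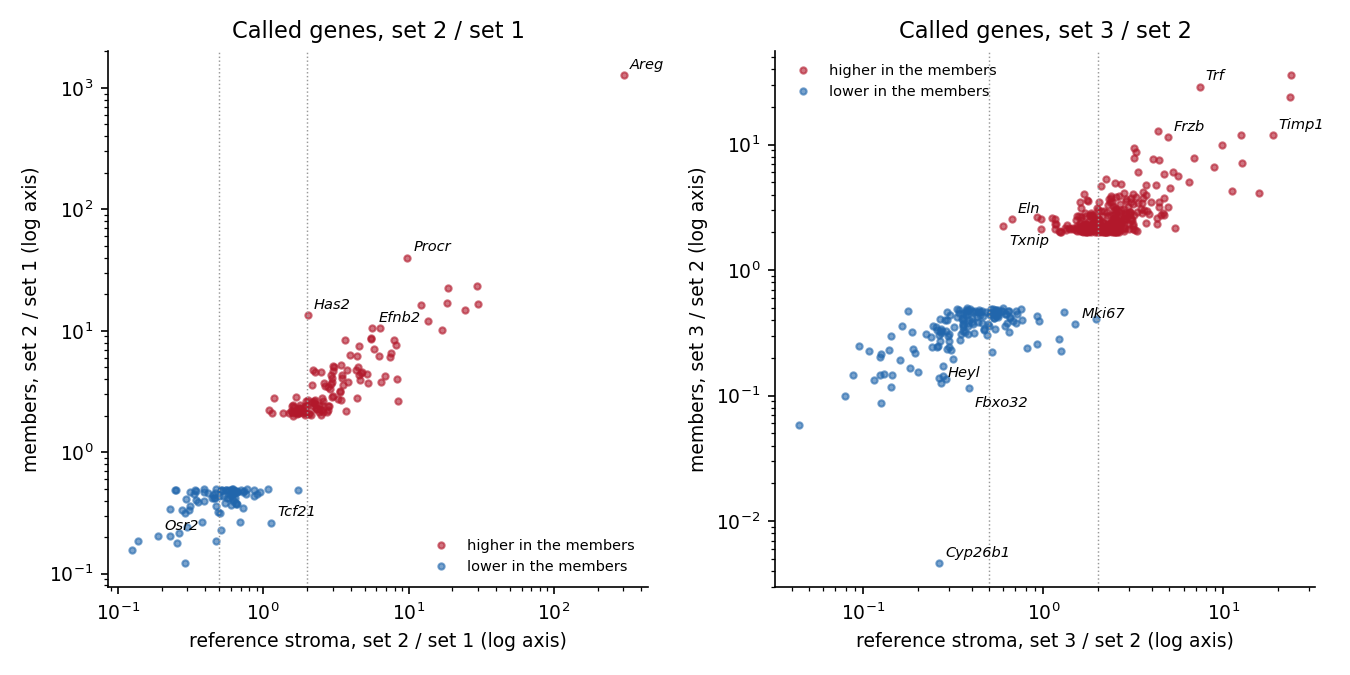
Ratio of set 2 to set 1 (left) and of set 3 to set 2 (right) for genes at least 2 times apart in the members, in the reference stroma (x axis) and the members (y axis), both on log axes. Red genes were higher and blue genes lower in the members, and dotted lines mark ratios of 0.5 and 2 in the reference stroma. Areg lies at the top right of the left panel, and 1 gene without a ratio, Serpina3n, is not drawn on the right.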

How the data were processed

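Droplet-based single-cell libraries of mouse ovary were sequenced by the authors, whose processing notes name Cell Ranger, Seurat and the build mm10, with no version. The deposited table holds 31776 cells and 24958 genes in natural log units: each cell was scaled to a total of 10000, and 1 was added before the log. UMI counts were recovered from the deposited values: all 80167176 values above 0 gave whole UMIs within 0.01, 240030587 in all, with 500 to 133658 per cell. Any filter on cells before deposit is not given in the sources used here, and doublets were not removed here.

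Cells were grouped by the rule, and by barcode ending only, since the table pools the 3 libraries with no map from cells to libraries and is treated as 1 sample. The members, gene lists and comparisons were chosen with earlier results of these data known. Levels were summed UMIs per 10000, with exact Poisson, binomial (Clopper-Pearson) and conditional binomial intervals; the interval of a ratio of means over the 3 sets is approximate (delta method on the log). Genes needed a mean level over the sets of at least 0.5 in either group (between sets, a level of at least 0.5 in either set), and a call a ratio of at least 2, in each set where groups were compared. The 18 genes of the rule were left out of counts and of the neighbour space. The calls were tested on simulated summed counts with counting error only, and the thinning on a simulated matrix. The neighbour step had no such test. Named genes were, of those called, up to 15 highest and 10 lowest against the reference stroma and 10 of each elsewhere, of which a selection made after their values were seen is described, with list genes by role and cell type markers. Positions are from GENCODE (GRCm38), and promoters and the position of Smim41 from RefSeq (GRCm38.p6). The alternatives were other marker numbers, exclusions, depths, thinning, weights, level filters, folds, left-out cells or sets, totals and neighbour settings. Python 3.11.15, numpy 2.4.6, scipy 1.17.1 and scikit-learn 1.9.0 were used.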

Additional observations from a re-analysis of the deposited data

How the results depend on the processing

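The rule gave 1203 members, and 400 with all 3 naming genes, 535 when cells were first thinned to 3000 UMIs, 240 with stricter exclusions and, with little movement, 1179 without cells over 20000 UMIs. Against the reference stroma, 5 genes were higher, and 30 with all 3 naming genes, 51 with the sets pooled, 21 with a level filter of 0.2, 9 with means over cells, 8 with thinned cells, 17 with stricter exclusions and between 8 and 56 without 1 barcode set (8 without set 1, 8 without set 2 and 56 without set 3). Chosen after the data were seen, a fold of 1.5 gave 40 and leaving out cells with cell cycle genes 10. The 17 lower genes became 57 with pooled sets, 42 with the filter of 0.2, 7 with thinned cells, 10 with stricter exclusions, between 14 and 62 without 1 set (62 without set 3) and, chosen after the data were seen, 54 at a fold of 1.5 and 9 without cells with Cyp11a1. Against the Wnt4 stroma the 37 higher genes became 63 with all 3 naming genes, 86 with pooled sets, 78 with the filter of 0.2, 86 at a fold of 1.5, 59 with stricter exclusions and between 41 and 84 without 1 set (84 without set 3), and the 57 lower genes 105 with pooled sets, 110 with the filter of 0.2, 123 at a fold of 1.5 and between 51 and 142 without 1 set (142 without set 3).

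Between sets, the filter of 0.2 gave 193 higher and 291 lower genes for set 2 against 1, and 638 and 344 for set 3 against 2. Thinned cells gave 190 lower for set 2 against 1, and 500 higher and 285 lower for set 3 against 2, and leaving the 50 most abundant genes out of the totals gave 252 lower there. Single ratios that turned were Cdc20 against the reference stroma without cycling cells (0.954), Spp1 with stricter exclusions (2.34) and Lhcgr for set 2 against 1 in thinned cells (1.32). The neighbour shares moved little, between 54.1% and 56.5%, 51.1% and 54.6%, and 25.6% and 27.3% in sets 1, 2 and 3. A lower filter or a lower fold admits more genes by construction, and the cause of the other movements was not tested. No paired analysis was possible because the labels give 1 library per time point and no replicate numbers, and barcode sets are not replicates. Depth limits which cells meet the rule, as the 535 members among thinned cells show.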

Other observations

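The members also differed from the fibroblasts marked by Mfap5 and Clec3b, a comparison whose calls were not counted because those genes set the groups apart. In 2680 such cells Enpep had levels of 0.333, 0.172 and 0.101, a ratio of 13.3 for the members, and Col15a1 0.325, 0.124 and 0.417, a ratio of 5.84. Cd24a, a surface glycoprotein, had a ratio of 12.1. Col4a4 went the other way at 2.91, 3.51 and 1.44, and Acta2 had a ratio of 0.334. A further 329 cells had at least 2 of the naming genes together with Mfap5 or Clec3b at or above the limit.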
